A study of Mus musculus with 6 samples.

Results

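Of 24947 windows of 1000 bases that could be compared between DM-aKG and control organoids, 915 were more methylated with DM-aKG in every treated library, and these 915 windows are described here. A window was the set of cytosine positions that share the same 1000-base block of the genome, and it was used where at least 4 of its positions had a value in all 6 libraries. The windows were chosen by their own values: the mean of the 3 DM-aKG libraries had to exceed the mean of the 3 controls by 5 percentage points or more, and each DM-aKG library had to lie above each control. They make up 3.67% of the windows, and the mirrored rule, lower with DM-aKG, took 185 windows or 0.742%. Because the rule used the difference between the groups, the levels below are given as a description and no test was made on them.

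The material was intestinal organoids, self-organising cultures of gut epithelium, with the Apc Min genotype. Apc Min is a truncating allele of Apc, a component of the complex that degrades beta-catenin. Control and treated organoids were all cultured in low-glutamine medium, and the treated ones also received DM-aKG, a compound whose short name points to the α-ketoglutarate of the study's title. The labels give 3 biological replicates per group, and they state neither a dose, a treatment time, an animal's age nor from how many animals the cultures came. Methylation was read by reduced representation bisulfite sequencing, which samples CpG-rich restriction fragments, and values are the percent of methylation per cytosine. The read depth behind each value is unknown, and no value lies between 1% and 39%, so the levels describe positions at 40% or more in every library.

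In mammalian genomes most CpG cytosines are methylated, while the CpG-dense starts of active genes are usually not. DNA methyltransferases write the mark, with UHRF1 guiding its copying after replication. The TET enzymes oxidise it in a reaction that consumes oxygen and α-ketoglutarate, and oxidation can lead to its loss. Partly methylated stretches inside and between genes often coincide with enhancers or differ from cell to cell.

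The sequences shown are promoters with measured positions on their own bases: 3 where DM-aKG was higher on those bases, and Ptchd3, where it was not. Of the 915 windows, 860 lay on chromosomes with annotated gene starts in the promoter table, and 49 of these (5.70%) were within 1000 bases of a start, against 1222 of 23665 windows overall (5.16%). In 10 promoter entries of RefSeq (GRCm38.p6, the assembly of mm10) at least 3 positions of a window lay on the sequence itself, which runs from 250 bases before to 50 bases after the gene start. Capitals mark the CpGs that had a value in all 6 libraries, and each sequence is written 5′ to 3′ on the strand of its gene.
Duoxa1 (chr2:122313681-122313980, minus strand): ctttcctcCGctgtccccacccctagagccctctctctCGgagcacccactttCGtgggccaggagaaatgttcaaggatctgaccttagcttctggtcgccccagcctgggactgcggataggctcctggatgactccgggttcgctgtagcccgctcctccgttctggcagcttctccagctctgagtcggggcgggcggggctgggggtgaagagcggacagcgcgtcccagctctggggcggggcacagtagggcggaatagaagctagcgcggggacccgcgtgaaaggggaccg
Chrna1 (chr2:73580289-73580588, minus strand): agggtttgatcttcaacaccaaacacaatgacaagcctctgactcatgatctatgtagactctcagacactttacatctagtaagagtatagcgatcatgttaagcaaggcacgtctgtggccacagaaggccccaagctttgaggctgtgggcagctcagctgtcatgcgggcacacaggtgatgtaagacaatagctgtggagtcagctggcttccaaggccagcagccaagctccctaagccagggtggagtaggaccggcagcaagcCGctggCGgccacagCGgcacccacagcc
Gm32840 (chr15:97043890-97044189, plus strand): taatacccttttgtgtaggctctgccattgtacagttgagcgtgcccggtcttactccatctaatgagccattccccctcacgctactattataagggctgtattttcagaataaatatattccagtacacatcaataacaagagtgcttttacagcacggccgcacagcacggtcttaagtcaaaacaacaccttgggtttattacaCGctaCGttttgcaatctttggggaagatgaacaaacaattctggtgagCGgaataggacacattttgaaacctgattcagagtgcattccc
Ptchd3 (chr11:121829968-121830267, plus strand): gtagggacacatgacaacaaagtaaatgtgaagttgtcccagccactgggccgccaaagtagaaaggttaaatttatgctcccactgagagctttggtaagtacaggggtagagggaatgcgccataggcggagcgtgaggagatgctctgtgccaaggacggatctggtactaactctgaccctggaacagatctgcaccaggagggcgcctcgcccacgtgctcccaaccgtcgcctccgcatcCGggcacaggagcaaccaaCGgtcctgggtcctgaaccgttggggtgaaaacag
Duoxa1, the maturation factor of the hydrogen peroxide-producing enzyme DUOX1, shares a divergent promoter region with Duox1, and 3 of the 22 CpGs of its entry were measured, between 242 and 196 bases before the start. Their 5 cytosines stood at 58.6%, 72.0% and 73.8% in the controls and at 74.8%, 76.6% and 82.0% with DM-aKG. The window's difference of 9.67 points was 4.90 without control replicate 1, the lowest of the 6 libraries. The measured CpGs sit at the far upstream edge, and the CpG-dense remainder of the sequence had no complete values.

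At Chrna1, which encodes a subunit of the muscle acetylcholine receptor, the 3 measured CpGs of the entry lay just after the gene start and stood at 93.8%, 93.8% and 90.5% in the controls and 99.2%, 97.7% and 96.0% with DM-aKG. These promoter cytosines were nearly fully methylated in all 6 libraries. The lncRNA Gm32840 starts inside the imprinted gene Slc38a4, an amino acid transporter gene, and the 6 cytosines on its promoter stood at 90.3%, 80% and 85.3% and, with DM-aKG, at 92.8%, 96.5% and 95.2%. Ptchd3 shows that a window and its promoter part can differ. The 22 positions of its window averaged 68.8% ± 3.99 without treatment and 74.2% ± 0.731 after it (SD, n = 3 libraries each), while the 3 cytosines on the printed sequence averaged 76.9% and 76.1%.

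The 915 windows had a lower control level than other windows, and their treated level stayed just under the general level. The windows of the mirrored rule showed the reverse: their controls averaged 86.7%, just under the general level, and DM-aKG 79.0%. A choice by the difference favours such levels in either direction. Averaged over the 915 windows, control replicates 1 to 3 stood at 75.1%, 80.1% and 79.6%, and DM-aKG replicates 1 to 3 at 85.5%, 85.2% and 87.5%. Over all 24947 windows the same libraries stood at 86.6%, 87.8% and 87.9%, and at 88.3%, 88.4% and 88.8%. The controls thus averaged 78.3% ± 2.74 (SD, n = 3) in the chosen windows and 87.4% ± 0.754 in all, and DM-aKG 86.1% ± 1.27 and 88.5% ± 0.293. The median difference was 7.09 points, with quartiles of 5.87 and 8.93, beside a median of 0.800 points over all windows. A difference under 7.5 points was found in 511 of the 915, 150 reached 10 points and 19 reached 15.

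**Figure D1:**
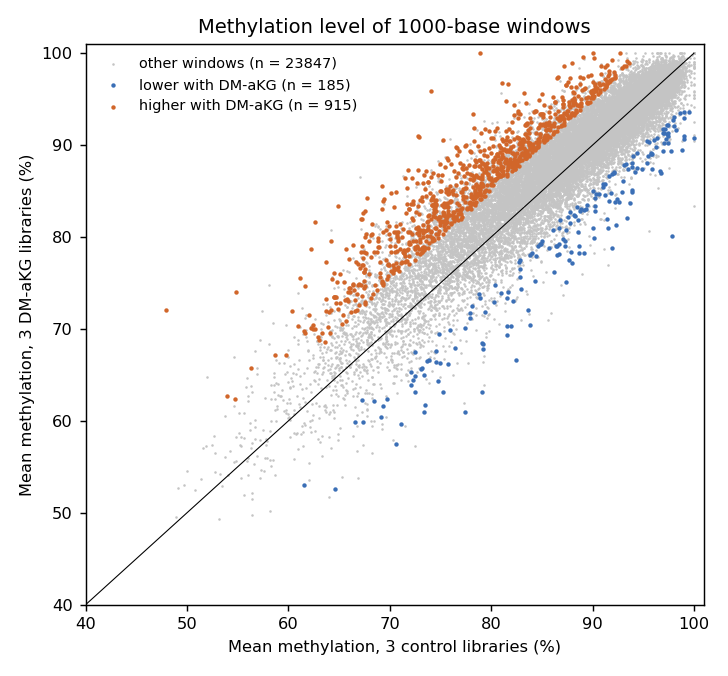
Mean methylation level (%) of each 1000-base window in the 3 control libraries (horizontal axis) and the 3 DM-aKG libraries (vertical axis), with the line of equal levels; both axes begin at 40. The 915 windows higher with DM-aKG lie at least 5 points above the line, fewer at the fully methylated corner, and the 185 lower ones at least 5 points below it.

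More windows met the rule upward than downward, and the imbalance was smaller with library means set equal. Of the windows that met either rule, 83.2% were higher with DM-aKG. After each library's mean over all positions was set equal, 538 windows met the rule upward and 368 downward, so that 59.4% were higher. All 538 were among the 915, but equalising lowered every difference by the same amount, so no window could newly reach 5 points. With 0 counted as a level 56.1% were higher, and 72.2% were when all rows were used. Groups that did not overlap, whatever the size of the difference, were found in 2213 windows upward (8.87%) and 633 downward (2.54%). A difference of 5 points or more, whether or not the groups overlapped, was found in 2402 windows upward (9.63%) and 608 downward (2.44%).

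Control replicate 1 stood apart in these windows. It was the lowest control in 635 of the 915 (69.4%), ties included, while over all windows it was the lowest in 47.9%. DM-aKG replicate 3 was the highest treated library in 537 (58.7%), compared with 41.3% overall. The gap between the lowest treated and the highest control library had a median of 1.8 points. It was under 1 point in 233 windows (25.5%) and reached 5 points in 71 (7.76%). With control replicate 1 left out, 591 of the 915 windows still met the rule, the fewest for any library left out; without DM-aKG replicate 3 it was 733, and without each of the other 4 it was 845 to 877. The upward count over all windows was 971 without control replicate 1, where only 2 controls had to lie below the treated libraries. The part of this library in the number of windows was not tested beyond leaving it out.

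**Figure D2:**
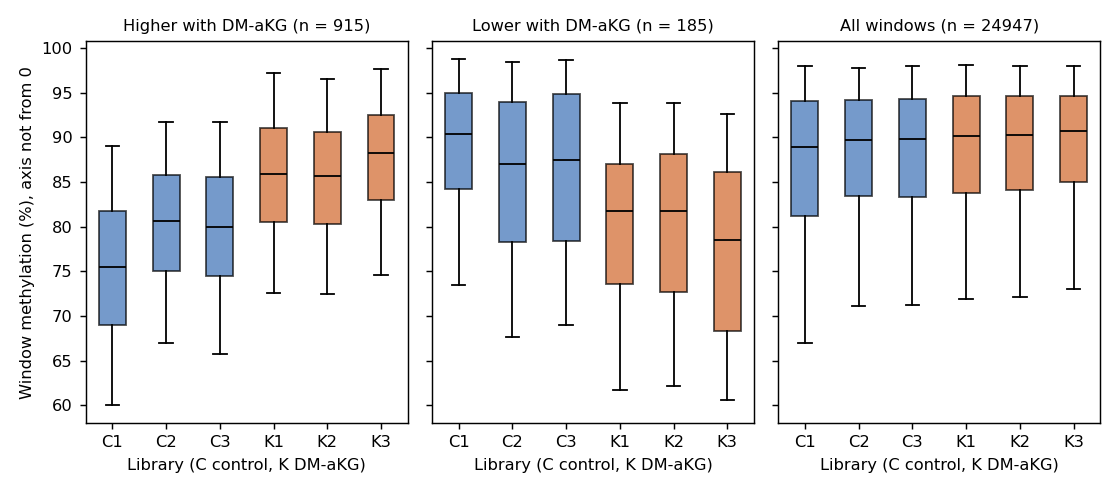
Level of methylation in percent, on a vertical axis that does not begin at 0, of the 6 libraries over the windows higher with DM-aKG, the windows lower with DM-aKG and all windows; C1 to C3 are controls and K1 to K3 DM-aKG, boxes show quartiles and medians, and whiskers run from the 5th to the 95th percentile. In the 915 higher windows control replicate 1 has the lowest median (75.5%) and DM-aKG replicate 3 the highest (88.2%), and over all windows the medians lie between 88.9% and 90.7%.

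Missing values also differed in these windows. The table lists 9273 positions in the 915 windows, and control replicate 1 had a value at 83.8% of them, against 90.5% to 91.7% in the other 5 libraries. Over all windows it had a value at 90% and the others at 91.4% to 93.4%. Whether a missing value means no call or a level that was too low to be listed cannot be told apart here. Only 73.8% of the listed positions had values in all 6 libraries, compared with 81.0% over all windows. The other 2434 positions were not used by the rule. Where these had a value, control replicates 1 to 3 averaged 75.6%, 70.5% and 71.1%, and the DM-aKG libraries 69.6% to 72.1%. A higher level with DM-aKG was thus not seen there. Each average rests on different positions, 933 in control replicate 1 and 1551 to 1664 in the other libraries, and no test was made. With missing values counted as 0, 794 of the 915 windows were still higher with DM-aKG and 121 were not.

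Most positions went in the direction of their window, which the choice of the windows by their mean favours. Of the 6839 positions, 5676 (83.0%) had a higher mean with DM-aKG, beside 52.9% of the positions of all windows. In 318 windows (34.8%) all positions did, beside 4.74% of all windows. At single positions the groups rarely separated: 18.4% of the positions had all treated values above all control values, beside 4.53% over all windows. No such position was found in 178 windows (19.5%), beside 69.0% of all windows. When the position with the largest difference was left out, the median difference was 5.2 points, 284 windows (31.0%) still met the rule, and 4 had a difference of 0 or less. Facing cytosines of a CpG are neighbouring positions in the table and are not independent. After positions 1 base apart were averaged, the windows held a median of 4 sites and 835 of the 915 kept a difference of 5 points or more. The whole rule, with at least 4 averaged sites and no overlap, was still met by 442 (48.3%).

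The windows were short on data and intermediate in level, as were the mirrored ones. They held a median of 6 positions, against 7 over all windows, and 408 of them (44.6%) had 4 or 5, against 33.5%. The share that met the rule was 4.88% among windows of 4 or 5 positions, 3.64% at 6 to 9, 2.72% at 10 to 19 and 1.02% at 20 or more, where it rests on 16 windows. Downward the shares were 1.14%, 0.723%, 0.348% and 0.255%. By the mean level of the 6 libraries, 9.79% of windows between 70% and 80% met the rule, 6.36% between 60% and 70%, 4.84% between 80% and 90% and 1.12% at 90% or more. Of the 88 windows under 60%, 2 met the rule upward and 2 downward (2.27% each). In the classes from 60% up, in rising order of level, the downward shares were 2.98%, 1.21%, 0.844% and 0.402%. Windows with a mean level under 80% made up 38.0% of the 915 and 15.6% of all. At 90% or more a difference of 5 points has little room, and 52 of the 915 had a control mean there.

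The windows lay mostly inside genes, as did the windows overall. Of the 915, 693 (75.7%) overlapped a gene span, beside 80.4% of all windows. Divided further, 113 (12.3%) lay within 1000 bases of a gene end, on either side of it, 605 (66.1%) lay deeper inside a gene and 197 (21.5%) lay farther outside. Over all windows the shares were 11.9%, 70.6% and 17.5%. The rule was met by 4.52% of windows outside genes, 3.43% deeper inside and 3.8% near gene ends. Among windows with a mean level under 80% the order was another, with 9.75% inside genes, 8.09% outside and 7.04% near ends. Those outside lay a median of 7962 bases from the nearest gene. By chromosome the share ran from 2.77% on chromosome 19 to 4.32% on chromosome 2, so no chromosome of the 13 used was without such windows or held most of them.

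**Figure D3:**
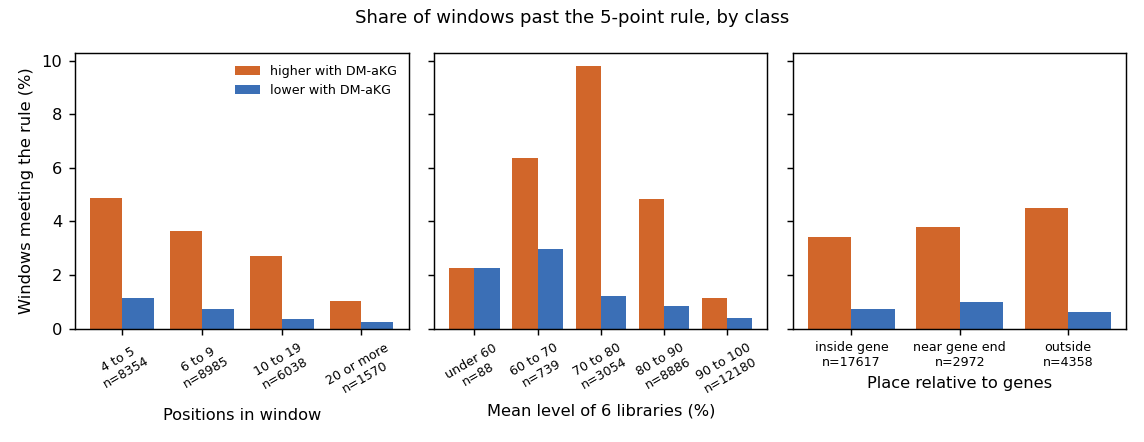
Percent of windows (vertical axis, from 0) that met the rule upward or downward, by the number of positions in the window, by the mean level of the 6 libraries and by place relative to genes, with the number of windows under each pair of bars. The upward share is highest at a mean level of 70% to 80% (9.79%) and lowest at 20 or more positions (1.02%).

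The largest differences were at windows of 4 to 9 positions, mostly inside genes. The largest, 24.2 points, was on chromosome 16 at 57391362 to 57391452, where Cmss1 and Filip1l overlap. Its libraries stood at 43.5%, 50.2% and 50% in the controls and 86.8%, 50.5% and 79.0% with DM-aKG. DM-aKG replicate 2 lay 0.250 points above the highest control there, and 4 of the 48 positions listed in the window had values in all libraries. With 0 counted as a level the difference was 9.42 points. In Shank3, a scaffold gene of excitatory synapses, 4 positions at 89549158 to 89549479 on chromosome 15 stood at 71.0%, 85.2% and 66.0% in the controls and 100%, 92.5% and 95% with DM-aKG. The groups were 7.25 points apart as a window, yet no single position separated them.

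Tet1, which encodes a 5-methylcytosine dioxygenase, held the third largest difference, 21.1 points. Its 5 positions on chromosome 10, from 62878138 to 62878329, overlap the lncRNA Gm51805 and lie 8995 bases from the annotated start of Tet1. All of them stood at 100% in the 3 DM-aKG libraries, and the controls averaged 60%, 86.8% and 90%. In control replicate 1 the positions at 62878138, 62878145, 62878193 and 62878329 were at 50% and the position at 62878326 at 100%, while in control replicate 3 the position at 62878138 was at 50% and the other 4 at 100%. Control replicate 2 was at 67% at 62878138 and 62878326 and at 100% at the others. Only the position at 62878138 separated the groups, and without it the gap of the window was 0. The 5 positions were among 13 listed in the window. Without control replicate 1 the difference was 11.6 points.

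Prf1, the gene of the lytic granule protein perforin, had controls at 46.8%, 61.8% and 55.8% and DM-aKG at 70.2%, 73.2% and 78.8% over 5 positions (61300111 to 61300253 on chromosome 10), 19.3 points higher. In Olfm1, a secreted glycoprotein gene, 4 positions on chromosome 2 (28198345 to 28198549) stood at 56.5%, 68.5% and 62.8% and at 78.0%, 81.0% and 86.0%, 19.1 points higher. Tnxb, the gene of the matrix protein tenascin-X, had the widest gap of the 12 largest. Its libraries stood at 63.0%, 69.3% and 62.3% and at 80.3%, 83.0% and 86.8%, with 11.0 points between the nearest libraries. There 5 of 6 positions were higher, and the exception, at 34672029 on chromosome 17, averaged 3.67 points lower with DM-aKG (-3.67). The window's difference of 18.5 points was 8.65 with 0 counted as a level.

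Of the remaining windows of the 12, Cdh6, a cadherin gene, had 60.6%, 81.6% and 76.6% in the controls and 86.8%, 90% and 96.0% with DM-aKG over 5 positions, and its difference of 18 points was 11.8 without control replicate 1. Ncam2, a neural adhesion molecule gene, had 65.6%, 65.6% and 72.2% and then 86.2%, 81.0% and 85.6%, and its groups were 8.8 points apart. The D-aspartate oxidase gene Ddo had 71.9%, 87.4% and 84.0% and then 96.9%, 98.0% and 95.3%. Windows beside P2rx5, an ATP-gated channel gene, and in Wscd1 differed by 16.4 and 16.3 points, with gaps of 2.25 and 0.200 points, and the latter difference was 4.40 with 0 counted as a level. Another lay outside protein-coding and lncRNA genes, 15371 bases from Nutm2 and 128 bases from the pseudogene Gm7259, with 9 positions and a difference of 18.2 points.

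**Figure D4:**
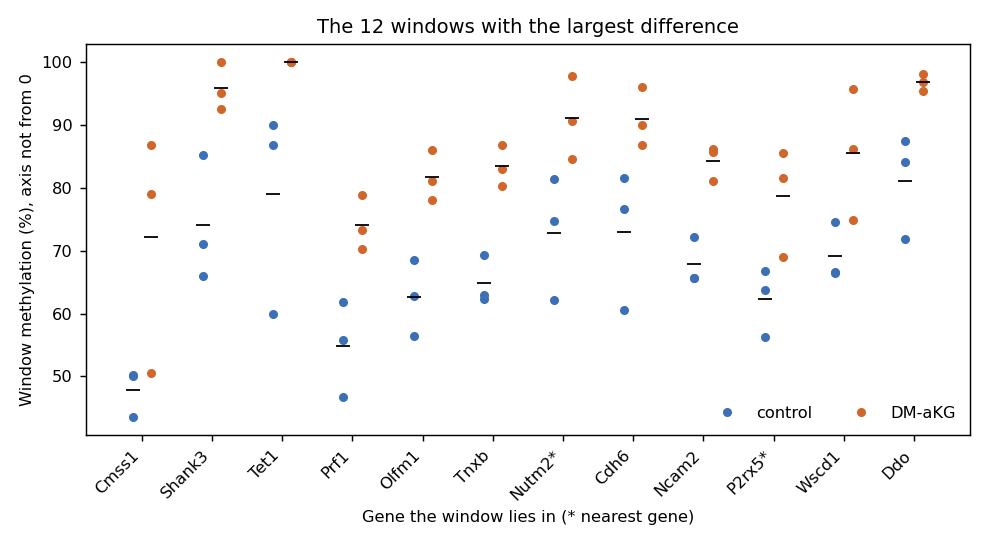
Level of methylation in percent, on a vertical axis that does not begin at 0, of the 6 libraries in the 12 windows with the largest difference, named by gene (horizontal axis; an asterisk marks the nearest gene), with bars at the group means of 3 libraries. The groups do not overlap, by the rule; at Cmss1 and Wscd1 the lowest treated library lies within 0.250 points of the highest control, and at Tet1 all 3 treated libraries are at 100%.

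The 5 windows with the most positions differed by 5.35 to 8.14 points. The most, 49, lay outside genes on chromosome 2 (84899410 to 84899692), 10769 bases from Rtn4rl2, a Nogo receptor-related gene. It stood at 82.2%, 85.4% and 84.4% in the controls and 89.8%, 89.6% and 89.0% with DM-aKG, 5.45 points higher, and 32 of its positions were higher. With 0 counted as a level it was 2.60 points lower with DM-aKG (-2.60). Krt72, a keratin gene of the hair follicle sheath, had 36 positions within 101786084 to 101786422 on chromosome 15, 98 bases from its start at the nearest. They averaged 77.9%, 82.8% and 80% in the controls and 88.0%, 87.8% and 89.3% with DM-aKG, 8.14 points higher, with 4.97 points between the nearest libraries.

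Zfp365 had 32 positions with 71.3%, 79.3% and 76.2% in the controls and 81.6%, 81.4% and 87.4% with DM-aKG, and 29 of them were higher. Fgg, the fibrinogen gamma chain gene, had 31 positions and a difference of 5.35 points, which was 3.19 without control replicate 1. A window of 37 positions on chromosome 17 (39844028 to 39844894) lay 1460 bases from Rn18s-rs5, a pseudogene related to 18S ribosomal RNA. It had controls at 49.2%, 57.3% and 57.8% and DM-aKG at 64.2%, 57.9% and 65.0%, so its groups were 0.108 points apart, and its difference of 7.6 points was 4.82 without control replicate 1. The table lists 157 positions in that window, of which these 37 had values in all 6 libraries.

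**Figure D5:**
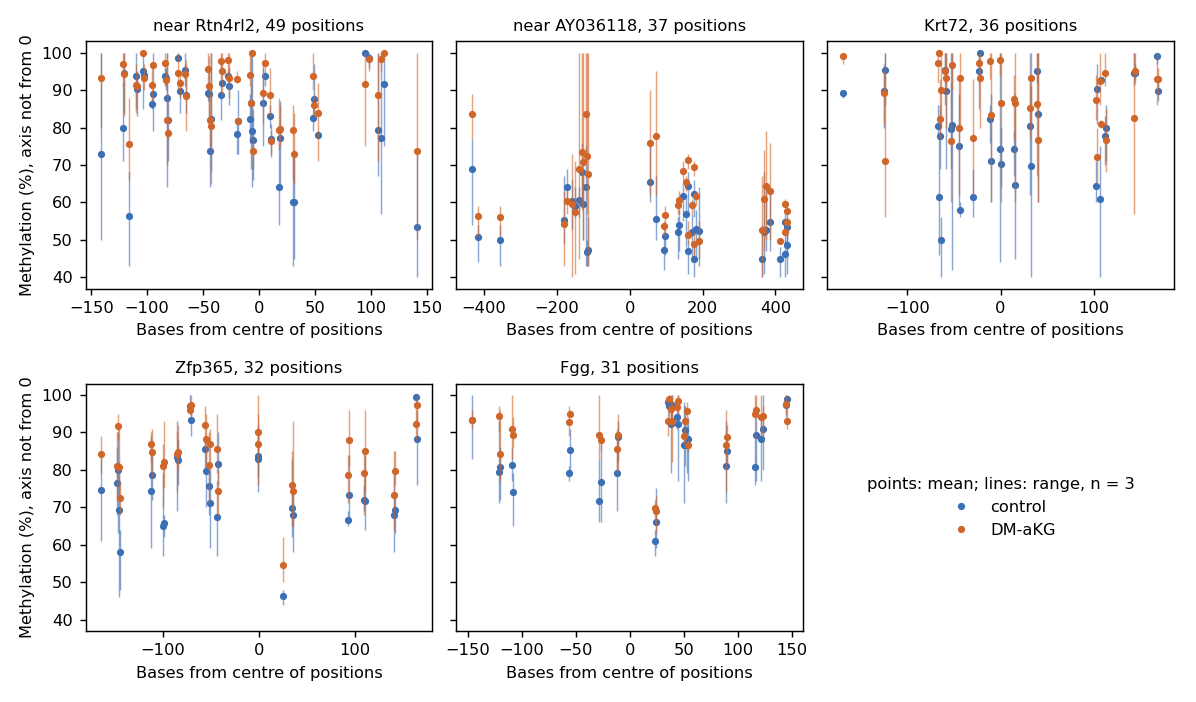
Level of methylation in percent, on a vertical axis that does not begin at 0, at each position of the 5 windows with the most positions, against the distance in bases from the centre of those positions (horizontal axis); points are means of 3 libraries and lines their range. The treated mean is higher at 29 of 32 positions in Zfp365 and at 32 of 49 near Rtn4rl2, and the ranges overlap at most positions.

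Windows that touch another window of the set were few. The rule took 4 pairs of adjoining windows, in Aatk, Baiap2, Mybl2 and Cntn2, and 740 of the 915 had no measured window on either side. The 174 measured neighbours outside the set had a median difference of 1.31 points and 72.4% were higher, beside 0.800 points and 64.2% over all windows. Aatk, a neuronal kinase gene, and Baiap2, an adaptor gene of actin remodelling, lie next to each other on chromosome 11. The adjoining pair in Aatk stood at 83.3%, 80.4% and 73.1% and then 84.9%, 87.0% and 85.9% over 9 positions, and at 83.1%, 79.3% and 74.7% and then 86.6%, 89.0% and 98.4% over the next 9. The first of them differed by 6.96 points, 4.04 without control replicate 3.

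The second window of the Baiap2 pair had 21 positions at 82.8%, 83.5% and 83.3% in the controls and 89.9%, 89.4% and 87.4% with DM-aKG, 3.95 points apart at the nearest. The first had 6 positions, with control and treated means of 90.1% ± 3.20 and 96.8% ± 2.89 (SD, n = 3 each). In Mybl2, a transcription factor gene of the cell cycle, the pair differed by 9.92 and 5.2 points, and in Cntn2, an axonal adhesion gene, by 8.58 and 6.73 points. With 0 counted as a level the former Cntn2 window differed by -23.7 points, the opposite direction.

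Counted by gene span with 1000 bases on each side, 705 of 8063 measured genes held a window of the set, and 84 held more than 1. Long genes with many measured windows were common among the 16 genes that held 3 or more, which had a median of 24.5 measured windows beside 2 over all genes. Ank3, the ankyrin-G gene, held 4 of its 29 windows. They differed by 14.7, 12.8, 8.33 and 5.2 points, and the largest was 9.04 without DM-aKG replicate 3, while the last pair was 4.65 and 3.14 without control replicate 1. Rbfox3, a neuronal splicing factor gene, held 3 of 26, with 12.7, 8.90 and 6.83 points; the middle one was 4.26 without control replicate 1, and the largest was 2.43 with 0 counted as a level. Aatk held 3 of 8, the third with 81.5% ± 4.99 (SD, n = 3) and 90.6% ± 2.90. These genes were named because they held the most windows of the set, while 3.67% of all windows met the rule. The median difference over a gene's measured windows was 0.808 points in Ank3, 2.87 in Rbfox3 and 2.87 in Aatk, beside 0.800 over all windows.

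The protocadherin locus on chromosome 18, whose overlapping gene models include Gm37013, Gm38666 and Gm38667, held 3 windows of the 56 measured in Gm37013. Over all windows 3.67% met the rule, and the median difference in Gm37013 was 1.63 points. The window at 37690055 to 37690988, in gamma protocadherin genes, stood at 65.0%, 68.0% and 70.8% in the controls and 81.2%, 75.5% and 82.0% with DM-aKG. It had 4 complete positions among 18 listed. Its difference of 11.7 points was 6.44 without the position of largest difference, where the groups overlapped. With medians it was 16.5 points, and 23.9 with 0 counted as a level. The other two differed by 5.87 and 5.13 points, and the latter, at Pcdhb15, by -21.9 with 0 counted as a level. Overlapping models share these windows, which therefore cannot be given to any single gene.

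Near annotated gene starts the largest difference was at Chn1, a gene of a Rac-inactivating protein, 437 bases from the start. It stood at 69.8%, 64.2% and 69.0% in the controls and 81.3%, 77.3% and 76.0% with DM-aKG, with 6.17 points between the groups. Sstr4, a somatostatin receptor gene, had 82.0%, 72.6% and 80.6% and then 91.3%, 87.5% and 86.3% over 11 positions that began 627 bases from its start. Pygm, the muscle glycogen phosphorylase gene, had 57.2%, 67.4% and 66.4% and then 74.6%, 69.6% and 75.6%, and its difference of 9.60 points was 6.37 without control replicate 1.

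Among the measured genes of the intestinal crypt and of differentiation no member was found, in lists that were measured only in part. No window of the set fell in 64 windows of 14 of 31 stem cell and Wnt target genes, while 2 windows there, in Axin2 and Tcf7, met the mirrored rule. There was also none in 30 windows of 13 of 30 absorptive enterocyte genes, 15 windows of 7 of 27 secretory lineage genes or 44 windows of 18 of 47 BMP and TGF-beta pathway genes. The same held for 66 windows of 13 of 26 Notch pathway genes, where a window in Jag2 met the mirrored rule, and 42 windows of 18 of 40 genes of glutamine and α-ketoglutarate metabolism. Over all windows 3.67% met the rule, so that lists of so few windows show little by a count of 0. The median differences of these lists were -0.28, 0.315, 3.28, 0.931, 0.101 and 0.233 points in that order of lists.

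The Wnt lists were near the share of 3.67% over all windows. Of 27 windows of Wnt antagonists 1 met the rule (3.70%), in Sox7, a transcription factor that restrains beta-catenin, with 67.1%, 76.5% and 74.0% in the controls and 77.6%, 79.3% and 79.7% with DM-aKG. Its difference of 6.33 points was 3.62 without control replicate 1. Of 64 windows of Wnt ligands and receptors 2 met it (3.12%). The ligand gene Wnt7b had 62.6%, 69.8% and 74.5% and then 75.5%, 80.6% and 80.8%, so that control replicate 3 and DM-aKG replicate 1 were 1 point apart. The receptor kinase gene Ror2 had 13 positions at 89.2%, 92.0% and 93.8% and then 98.1%, 96.9% and 98.2%. The lists' medians were 2.17 and 0.0127 points.

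Among 56 windows of the DNA methylation machinery 3 met the rule (5.36%, beside 3.67% of all), with a list median of -0.06 points. Beside Tet1 they were Uhrf1, the maintenance methylation factor, and Zbtb4, a reader of methylated DNA. The Uhrf1 window, 491 bases from the gene, stood at 89.0%, 87.2% and 78.4% and then 90.6%, 89.6% and 93.4%, and its 6.33 points were 3.10 without control replicate 3. The Zbtb4 window differed by 6.22 points, 3.56 without DM-aKG replicate 3. Imprinted genes, expressed from the maternal or the paternal copy, held 4 of 89 windows (4.49%, beside the same 3.67%; list median 0.778 points), in H13, Meg3, Rtl1 and Slc38a4. The windows in the Dlk1 and Meg3 domain on chromosome 12 stood at 76.0%, 88.7% and 86.0% and then 90.3%, 92.2% and 90.2% at Meg3, and at 80.2%, 78.8% and 82.8% and then 87.0%, 86.2% and 88.0% at Rtl1, where 2 of 4 positions were higher. The Meg3 difference of 7.33 points was 3.56 without control replicate 1 and 37.3 with 0 counted as a level. The Rtl1 difference of 6.50 points was 2.22 without its largest position.

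Slc38a4 had the widest gap of these, 5.09 points, with 11 positions at 86.6%, 85.2% and 88.1% in the controls and 94.3%, 93.7% and 93.2% with DM-aKG, and 10 of them higher. H13, a signal peptide peptidase gene, had 83.4% ± 3.90 (SD, n = 3) and 92.3% ± 3.21.

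Developmental transcription factor genes held 9 of 76 windows (11.8%, beside 3.67% of all windows), with a list median of 2.08 points beside 0.800. None was in the mirrored set, which held 0.742% of all windows, so a count of 0 in 76 windows shows little. The list was measured only in part, at 31 of its 92 genes. The members were in Irx4, Lhx1, Meis1, Sall3 with 2 windows, Gata3, Sall4, Wt1 and Tbx4, from 12.1 to 5.83 points. Irx4, an Iroquois homeobox gene, had 10 positions, all higher, at 67.2%, 92.1% and 87.4% in the controls and 95.7%, 94.0% and 93.3% with DM-aKG, and its difference was 4.58 without control replicate 1. Lhx1, a LIM homeobox gene, had 62.3%, 67.3% and 66.9% and then 74.9%, 77.2% and 73.1%, with 5.78 points between the groups. Meis1, a HOX cofactor gene, had 57.5%, 65.8% and 59.5% and then 72.8%, 66.1% and 72.1%, with 0.375 points between them. The larger Sall3 window differed by 8 points.

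Of the other cell types, fibroblast markers held 1 of 9 windows, too few to set beside the 3.67% of all windows, in Pdgfrb, a growth factor receptor gene of mesenchymal cells. It stood at 67.3%, 85.3% and 83.8% in the controls and 92.2%, 87.2% and 85.8% with DM-aKG, and its 9.59 points were 3.85 without control replicate 1. None of 9 windows of immune markers and 13 of endothelial markers met the rule. The medians of the 3 lists were 2.33, -0.04 and 1.37 points.

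At the threshold the windows formed a continuum. The members just inside, beside Htr4, in Dab2ip and beside Spg20, differed by 5 points. The window beside Htr4 differed by 3.03 points without control replicate 2 and by -5.50 with 0 counted as a level. In Dab2ip it was 1.5 without the position of largest difference. Those just outside, with groups that did not overlap, differed by 4.97 points in Cd96, 4.96 near Uck2 and 4.96 near Mrps14.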

How the data were processed

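Per the labels, genomic DNA of 6 organoid cultures was sequenced on an Illumina instrument. Per the submitters' processing notes Novoalign 3.08.02 and CASAVA 1.8 were used with the mm10 build. Which methylation caller and filters were applied is not given in the sources used here, nor are the tools' roles. The authors deposited a percent of methylation per cytosine and library in whole numbers, with no coverage column, so no coverage minimum or counting interval could be applied. The start column counts from 1: of 13472 positions on RefSeq promoter sequences, 13460 fell on a CpG.

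Rows 1 to 390208 of 813850 were used (chromosomes 1, 2 and 10 to 19, and 3 up to 87947903). In later rows the libraries no longer lined up, for a reason that is not known. A value of 0 was treated as missing. The remaining 272327 complete positions were averaged in 1000-base windows, and differences equal to 5 points count as reaching it. Genes are protein-coding and lncRNA spans of GRCm38.p6 (34627 genes), for which exons and introns are not given. Gene starts come from the promoter table, which has no entries on chromosome 18. Analyses ran in Python 3.11.15 with pandas 2.3.3, and the windowing was tested on simulated data.

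The members, the 14 gene lists and the naming rules were chosen with earlier results of these data known. Named were the 12 largest differences, the 5 windows with most positions, the 3 on each side of the threshold, adjoining windows, the 4 largest near gene starts, the 6 genes with most windows, and up to 4 members per list; promoter sequences and the 10 entries were chosen after their values were seen. Alternatives changed the threshold, the positions required, the window, the averaging, the library means, the meaning of 0, the rows and the libraries.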

Additional observations from a re-analysis of the deposited data

How the results depend on the processing

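The number of windows was 1602 at 3 points, 150 at 10 points, 311 with at least 8 positions, 571 with positions 1 base apart averaged, 538 with library means equalised, 1988 with 0 counted as a level and 1748 over all rows of the table. It ranged from 971 to 1991 with a library left out, and was 881 to 957 with other window sizes or offsets or with medians. The lower count was 368 with library means equalised, 1554 with 0 as a level (56.1% of both sets higher) and 672 over all rows (72.2%). The median difference was 11.6 points at the threshold of 10 points and 12.7 with 0 as a level. The share of windows under 80% was 27.2% at 3 points, 54.0% at 10 points, 33.4% with at least 8 positions, 29.6% with medians, 43.1% with library means equalised, 73.0% with 0 as a level, 24.8% over all rows and 30.6% to 37.6% with a library left out. With 0 as a level the difference reversed in 4 named windows, to -23.7 points in Cntn2 (the first of its pair), -2.60 near Rtn4rl2, -21.9 at Pcdhb15 in the protocadherin locus and -5.50 near Htr4, which was 3.03 without control replicate 2. Another 15 of the 57 named windows moved by more than the spread between libraries under that setting, with values from -23.7 to 37.3 points over the 57. With medians 8 moved (1.17 to 28.2 over the 57) and without the position of largest difference 3 moved (1.5 to 20.6). None moved with positions 1 base apart averaged or with library means equalised, which took the same amount off every difference. With a library left out none could, because leaving out 1 of 3 libraries cannot shift a group mean by that spread. Irx4 still fell from 12.1 to 4.58 points without control replicate 1. The causes were not tested. Depth is unknown and limits every value. No paired analysis was made, because the labels do not say that equal replicate numbers are linked. The results come from no test.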
